A study of Mus musculus with 6 samples.

Results

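The xenobiotic phase I and II enzymes were compared between lungs of GRdim/dim and wildtype (GR+/+) mice after hemorrhagic shock (HS). The rule that selects them uses gene symbol and biotype and contains no measured value, but it was drawn up with earlier results of these data known. The set holds all protein-coding genes of the cytochrome P450 (Cyp), flavin monooxygenase (Fmo), carboxylesterase (Ces), epoxide hydrolase (Ephx), aldehyde dehydrogenase (Aldh), UDP-glucuronosyltransferase (Ugt) and microsomal glutathione S-transferase (Mgst) families. It also holds the alpha, mu, pi, theta, kappa and omega glutathione S-transferases (Gst). Cyp1a1, Cyp1a2, Cyp1b1, Aldh3a1, Aldh1a1 and Cyp2f2 were left out by the rule, and Cyp1a1, one of these, differed most between genotypes of the genes of xenobiotic metabolism tested here. The set came to 191 of the 54532 genes in the deposited counts, of which 22046 were protein-coding. Another 33 genes with such symbols, nearly all pseudogenes, had a different biotype and were not included.

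GRdim/dim mice carry a germline point mutation in Nr3c1, the gene of the glucocorticoid receptor (GR), which impairs dimerization of the receptor in every cell type that expresses it. The controls were wildtype littermates on the same 129/SvEv x C57BL/6 background, and all mice were 10 to 16 weeks old. All 6 mice, 3 per genotype, were anesthetized with sevoflurane, ketamine, midazolam and fentanyl, ventilated, bled to a mean arterial pressure of 35 mmHg for 1 h, re-transfused and resuscitated for 4 h with colloids and norepinephrine. Lungs without HS or without anesthesia were not analysed here, so every value describes shocked and resuscitated lungs. The wildtype group had 2 females and 1 male and the GRdim/dim group 1 female and 2 males, but which library came from which sex is not in the labels. Each lung gave 1 library of poly(A)-captured RNA.

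Phase I enzymes introduce or expose a reactive group on a foreign or endogenous lipophilic compound by oxidation or hydrolysis, and phase II enzymes attach glutathione, glucuronic acid or sulfate, so that transporters can remove the product. Most families have their highest expression in the liver, while the lung has its own set, much of it in club cells and alveolar type 2 cells of the epithelium. Several of these genes are controlled by the nuclear receptors PXR and CAR, by the aryl hydrocarbon receptor or by NRF2, and glucocorticoids are known to act on this control in the liver.

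Library totals were 15687734 to 32082940 counts. Levels are CPM values, which are read counts relative to the library total, after TMM scaling for library composition. Nr3c1 had 138, 145 and 162 CPM in wildtype replicates 1 to 3 and 159, 150 and 120 CPM in GRdim/dim replicates 1 to 3, and a gene count cannot show a point mutation. Wildtype replicate 3 held 1495 reads of Alb (albumin, a hepatocyte product) against 6 to 48 in the others, and wildtype replicate 2 held 805 reads of Kap (a kidney tubule gene) against 0 to 19. Both libraries are named below wherever a low member depends on them. A gene was called differentially expressed (DEG) where its log2 fold change lay beyond 0.5 and its Benjamini-Hochberg adjusted p, from the quasi-likelihood test of edgeR, was under 0.05. Of 16568 genes tested, 28 were DEGs between genotypes. With 3 against 3 libraries, an exact two-sided permutation test of a single gene cannot give a p-value below 0.1.

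No member was a DEG in edgeR's test, where 0.169% of all tested genes were DEGs (0.0724% higher and 0.0966% lower), and the lowest adjusted p-value of a member was 0.0965. At this depth 93 of the 191 members passed edgeR's filter on low counts (filterByExpr, applied without regard to direction) and were tested, and 98 were not. At an unadjusted p-value under 0.05, 12 members were lower in GRdim/dim lungs (12.9%, against 4.68% of all genes tested) and 6 were higher (6.45%, against 4.91%). Without wildtype replicate 2, 8 were lower and 2 higher, and 9 were lower without wildtype replicate 1 or without GRdim/dim replicate 1. With a covariate of sex-linked expression 7 were lower and 5 higher, and without the filter 23 and 8. Without the filter 31368 genes were tested, among them members with few reads. No shares over all genes are given for these alternatives, so their counts do not compare members with other genes. The log2 fold change was below 0 in 57 members (61.3%, against 49.1% of all genes), with a median of -0.14 against 0.01 over all genes. That median was -0.039 without GRdim/dim replicate 1 and -0.075 with the covariate of sex-linked expression. Most differences were small, with 64 members within 0.5 of 0. The standard error (SE) was 0.15 to 0.80 with a median of 0.28. DESeq2, the tool of the study, gave 5 members as DEGs, 2 higher and 3 lower (of all genes, 1.7% were DEGs in DESeq2, 0.817% higher and 0.879% lower). edgeR without the filter gave 2 higher and 6 lower (1.66% of all genes, 0.813% higher and 0.851% lower), and these calls are given with each gene.

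**Figure D1:**
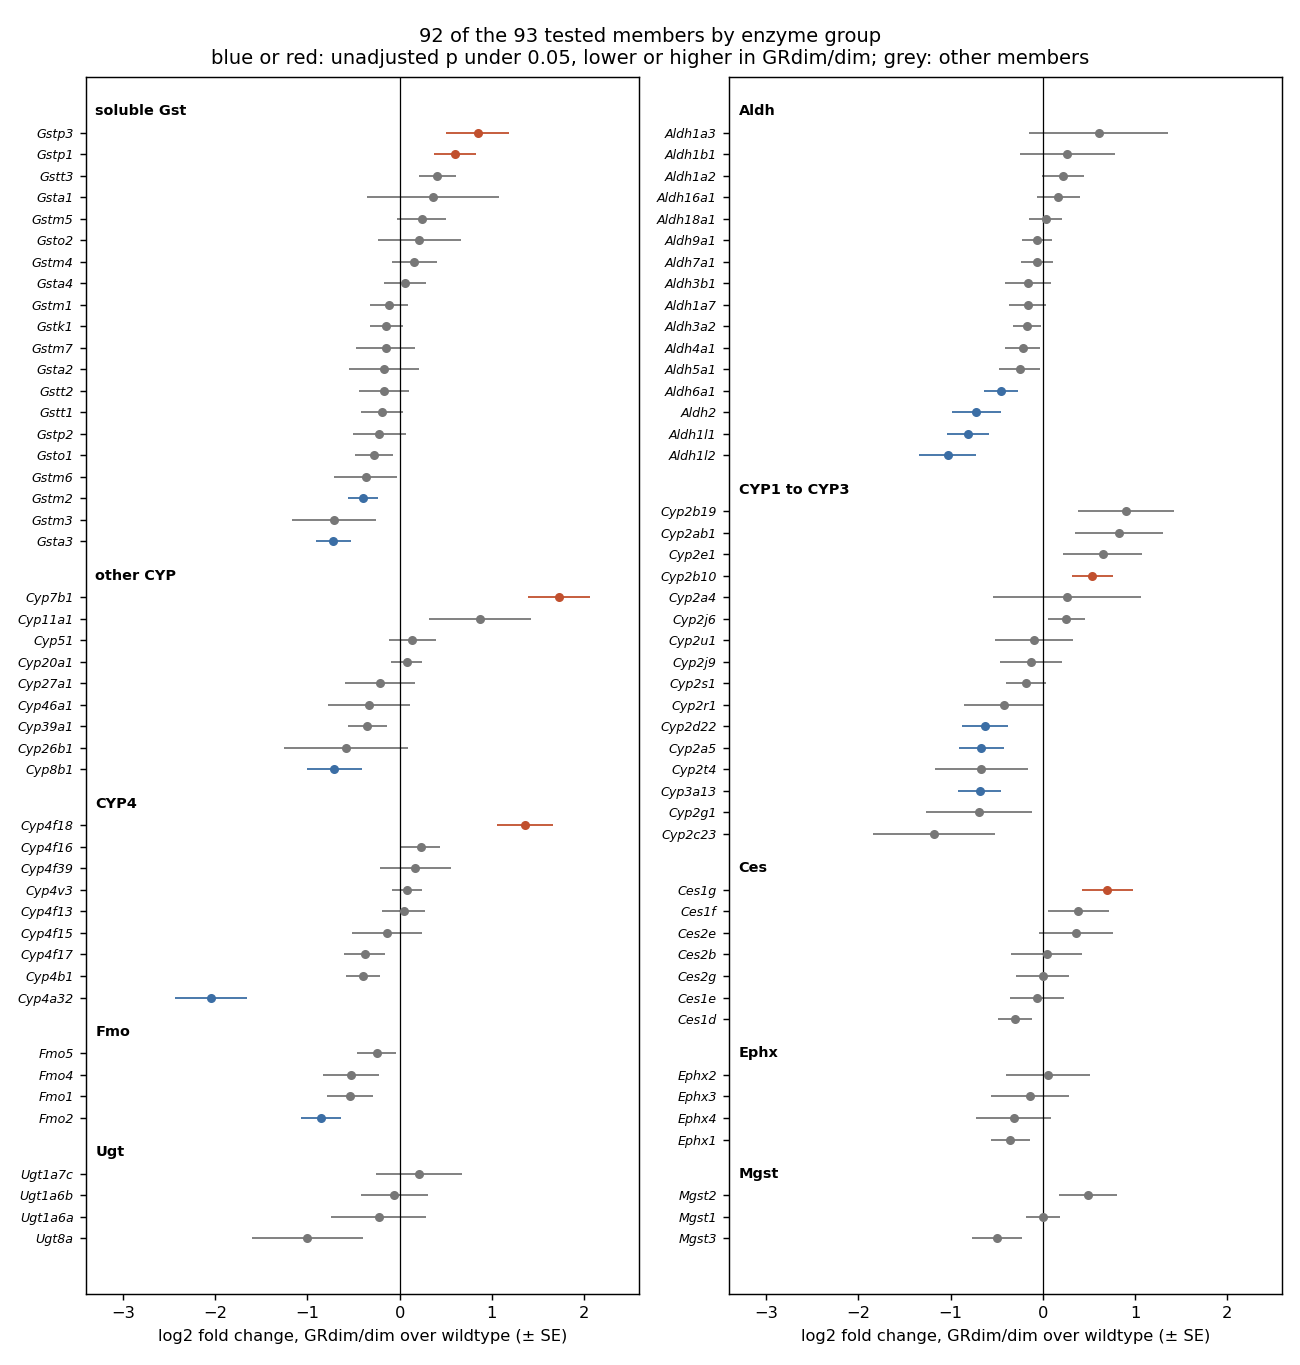
Log2 fold change (GRdim/dim over wildtype, edgeR) of 92 of the 93 tested members, each with its SE as a bar, grouped by enzyme family; blue and red mark an unadjusted p-value under 0.05, lower and higher in GRdim/dim. The 4 Fmo genes plotted lie below 0, and Cyp4a32 (-2.05) and Cyp7b1 (1.73) lie farthest out on either side.

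In summed level, the whole set was lower in GRdim/dim lungs. The members added up to 9315, 10297 and 9060 CPM in wildtype replicates 1 to 3 and to 7184, 7747 and 7667 CPM in GRdim/dim replicates 1 to 3. Every GRdim/dim lung was below every wildtype lung. As a share of all reads, this was 0.889% to 1.05% in wildtype and 0.728% to 0.763% in GRdim/dim libraries. The mean difference of 2025 CPM came mainly from a few abundant genes, with 879 CPM (43.4%) from Fmo2, 361 CPM (17.8%) from Aldh2, 277 CPM (13.7%) from Cyp4b1 and 210 CPM (10.4%) from Fmo1. Cyp2b10 went the other way by 194 CPM. Without Fmo2 the sums were 7226 to 8092 CPM in wildtype and 5883 to 6756 CPM in GRdim/dim, still apart. Without the first 4 genes they were 4512 to 5118 and 4190 to 4788 CPM and overlapped. A sum over the set was not tested. In bulk tissue, fewer cells of a type and less RNA per cell cannot be told apart.

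**Figure D2:**
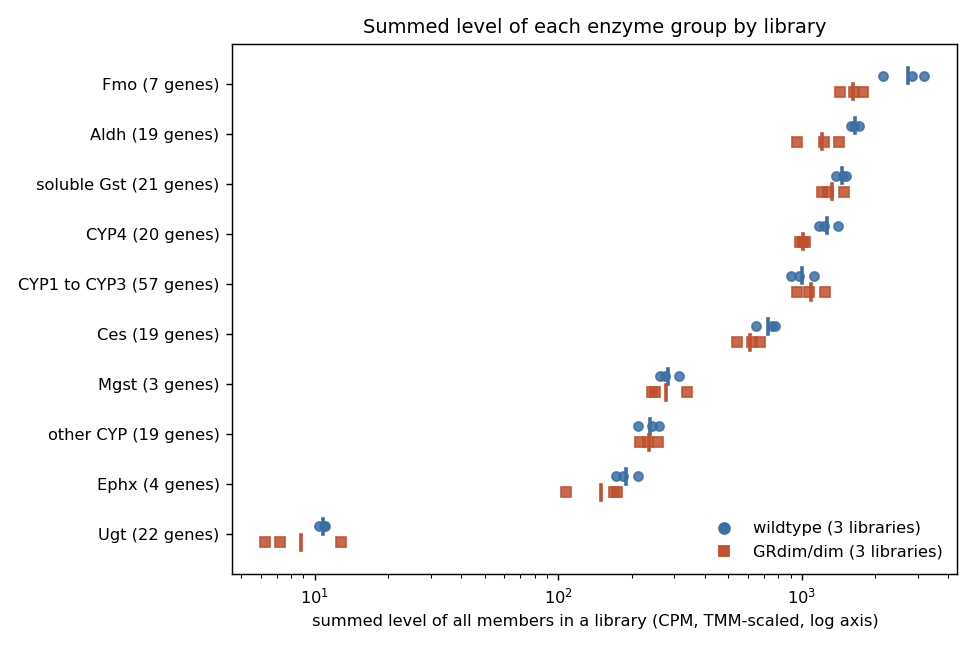
Summed CPM (log axis) of all members of each enzyme family in each library, with the mean of 3 libraries as a bar; circles are wildtype and squares GRdim/dim. The Fmo, Aldh and CYP4 sums do not overlap between genotypes, and those of the other families do.

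A handful of members made up most of the expression. The 10 with the highest CPM held 71.6% of the summed CPM. Per kilobase of gene length, which allows genes to be compared, 9 members had a mean level over 100 CPM per kb and 76 over 1. Cyp4b1, a P450 of lung epithelium that activates protoxicants, led with 444 CPM per kb. It was followed by Gstm1 (291), Fmo2 (273), Ces1d (255), Cyp2b10 (248), Gstp1 (234), Aldh2 (144) and Mgst1 (121 CPM per kb). For scale, the omitted club cell enzymes Cyp2f2 and Aldh1a1 stood at 642 and 294 CPM per kb.

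The flavin monooxygenases, which oxygenate nitrogen and sulfur atoms of drugs, had lower values in GRdim/dim lungs for Fmo1, Fmo2, Fmo4 and Fmo5. Fmo2 (ENSMUSG00000040170, chr1:162874317-162898726, GRCm38), the main flavin monooxygenase of the lung, had 2088, 2206 and 1620 CPM in wildtype replicates 1 to 3. In GRdim/dim replicates 1 to 3 it had 1301, 991 and 984 CPM. All GRdim/dim lungs were thus below the lowest wildtype lung. Its fold change on the log2 scale was -0.85 (SE 0.22, n = 3 per genotype, unadjusted p = 0.00276 and adjusted p = 0.232 in edgeR across all genes). DESeq2 (adjusted p = 0.00956) and edgeR without the filter (adjusted p = 0.0115) called it lower, and over the 13 alternatives the adjusted p reached 0.5. Leaving out each library in turn kept the fold change between -0.99 and -0.76.

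Fmo1, Fmo4 and Fmo5 had the same sign with overlapping libraries. Fmo1, the second most abundant, had 667, 888 and 468 CPM in wildtype and 433, 552 and 409 CPM in GRdim/dim lungs (log2 fold change -0.54, SE 0.25, adjusted p = 0.54 in edgeR), and the fold change was -0.28 without wildtype replicate 2. Its highest GRdim/dim value lay above its lowest wildtype value. Fmo4 (-0.53) and Fmo5 (-0.25) had unadjusted p-values of 0.109 and 0.259. Fmo1, Fmo2 and Fmo4 lie in an array on chromosome 1, while Fmo5 lies on chromosome 3.

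Among the aldehyde dehydrogenases, which oxidize aldehydes from lipids, amines and alcohol, 11 of 16 tested genes were below 0 (median -0.16). Of the 16, 4 had an unadjusted p-value under 0.05, all lower, and 6 did not overlap between genotypes, also all lower. Over all genes tested, 4.68% were lower at that p-value and 7.05% were lower without overlap. Aldh2 (chr5:121566027-121593824), the mitochondrial enzyme that removes acetaldehyde, had 946, 1015 and 798 CPM in wildtype and 357, 556 and 762 CPM in GRdim/dim lungs. The libraries did not overlap, but GRdim/dim replicate 3 was close to the lowest wildtype lung. The log2 fold change was -0.72 (SE 0.27, unadjusted p = 0.0222, adjusted p = 0.435 in edgeR), and it was -0.47 without GRdim/dim replicate 1. DESeq2 gave an adjusted p of 0.166 and edgeR without the filter 0.0488, and the highest of the 13 alternatives was 0.723. The non-overlapping members Aldh3a2 (-0.17) and Aldh5a1 (-0.25), which oxidize fatty aldehydes and succinic semialdehyde, had unadjusted p-values of 0.274 and 0.291. They were chosen for mention after their values were seen.

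Both 10-formyltetrahydrofolate dehydrogenases of one-carbon metabolism were lower. The cytosolic Aldh1l1 had 29.6, 19.4 and 29.1 CPM in wildtype and 13.3, 14.95 and 16.4 CPM in GRdim/dim lungs (log2 fold change -0.81, SE 0.23, adjusted p = 0.279 in edgeR). The mitochondrial Aldh1l2 had 14.5, 10.2 and 22.2 CPM against 8.84, 7.93 and 6.20 CPM (log2 fold change -1.03, SE 0.31, adjusted p = 0.313 in edgeR, 0.0247 without the filter and up to 0.593 over the 13 alternatives). Its highest value was in wildtype replicate 3, without which the fold change was -0.68. Neither gene overlapped between genotypes. Aldh1l2 shares 1056 exon bases with a gene on the opposite strand, D10Wsu102e, and reads from the pair could not be told apart where strand was not used in counting. Aldh6a1, of valine breakdown, had 99.7, 122 and 102 CPM against 88.9, 86.3 and 61.6 CPM (log2 fold change -0.45, adjusted p = 0.476 in edgeR, and -0.30 without GRdim/dim replicate 3), and it shares 1078 exon bases with the antisense gene Bbof1. The abundant Aldh1a7 (-0.16) overlapped widely and was 0.05 without wildtype replicate 3.

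The CYP4 family, whose enzymes mostly hydroxylate fatty acids and eicosanoids at the end of the chain, held members far out on both sides. Cyp4a32 (ENSMUSG00000063929, chr4:115600969-115621602) had 3.41, 4.08 and 6.42 CPM in wildtype replicates 1 to 3 and 1.19, 1.37 and 0.775 CPM in GRdim/dim replicates 1 to 3. The lowest wildtype lung was well above the highest GRdim/dim lung. Its fold change on the log2 scale was -2.05 (SE 0.39, unadjusted p = 0.000356 and adjusted p = 0.0965 in edgeR, 0.000864 in DESeq2, 0.000501 in edgeR without the filter, and up to 0.264 over the 13 alternatives). Of its windows of 31 bases, 65.3% also occur in another gene, mainly Cyp4a10 and Cyp4a31, so the split of reads among these copies is uncertain. The 3 genes together gave 3.47, 5.76 and 6.45 CPM in wildtype and 1.24, 1.37 and 1.16 CPM in GRdim/dim lungs.

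CYP4A genes are highly expressed in liver and kidney, and wildtype replicates 2 and 3 carried the kidney and liver transcripts given above. The difference in Cyp4a32 was -2.13 without wildtype replicate 2 and -1.73 without wildtype replicate 3. In wildtype replicate 1, with 6 reads of Alb and 0 of Kap, Cyp4a32 was at 3.41 CPM, above all GRdim/dim lungs. The 9 kidney tubule genes described below had 93, 1079 and 69 reads in wildtype and 12, 12 and 52 in GRdim/dim lungs. The part of kidney or liver transcripts in the lower Cyp4a32 level was not tested. The neighbour of Cyp4a32, Cyp4b1 (chr4:115624725-115647723), was the most abundant member per kilobase. It had 1102, 1262 and 1056 CPM in wildtype and 903, 861 and 825 CPM in GRdim/dim lungs. These did not overlap, with a log2 fold change of -0.40 (SE 0.18, unadjusted p = 0.0531, adjusted p = 0.529 in edgeR). The less abundant CYP4F gene Cyp4f17 did not overlap either (-0.38, adjusted p = 0.659 in edgeR), and Cyp4v3, a fatty acid hydroxylase, was at 0.08 (SE 0.16).

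Cyp4f18 (ENSMUSG00000003484, chr8:71988482-72009626), which hydroxylates the neutrophil attractant leukotriene B4, was on the high side. It had 8.55, 7.55 and 4.29 CPM in wildtype and 13.4, 19.4 and 19.2 CPM in GRdim/dim lungs. All GRdim/dim lungs were above the highest wildtype lung. The log2 fold change was 1.36 (SE 0.30, unadjusted p = 0.00103 and adjusted p = 0.152 in edgeR, 0.00228 in DESeq2, 0.000548 in edgeR without the filter, and up to 0.315 over the 13 alternatives). Cyp4f18 is known from myeloid cells, and the summed level of 10 neutrophil genes, a list added after the values were seen, was 503, 335 and 266 CPM in wildtype and 1110, 369 and 491 CPM in GRdim/dim lungs. Of 8 tested neutrophil genes, 3 were higher at an unadjusted p-value under 0.05 and 0 lower. The GRdim/dim lung with the highest neutrophil sum had the lowest Cyp4f18 of the 3, and their part in the difference was not tested. Cyp4f18 shares 181 exon bases with Zfp961 on the opposite strand.

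Cyp7b1 (ENSMUSG00000039519, chr3:18071950-18243338), the oxysterol 7-alpha-hydroxylase that converts 25-hydroxycholesterol to a guidance cue of immune cells, had the highest fold change of the 93 tested members. It had 5.98, 4.50 and 3.56 CPM in wildtype and 21.7, 10.1 and 14.6 CPM in GRdim/dim lungs, with no overlap. Its fold change on the log2 scale was 1.73 (SE 0.33, unadjusted p = 0.000371 and adjusted p = 0.0965 in edgeR, 8.61e-05 in DESeq2, 8.63e-06 in edgeR without the filter, and up to 0.263 over the 13 alternatives). It stayed between 1.41 and 1.96 when each library was left out. None of its 31-base windows is shared with another gene. Summed over 10 B cell genes, the level was 93.4, 190 and 157 CPM in wildtype and 221, 749 and 615 CPM in GRdim/dim lungs, and 8 of the 10 were higher at an unadjusted p-value under 0.05. GRdim/dim replicate 1 had the highest Cyp7b1 and the lowest B cell sum of its genotype, and the part of B cells in the difference was not tested.

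The other P450s of sterol, vitamin and retinoid metabolism gave smaller differences. Of 9 tested genes outside families 1 to 4, 5 were below 0 (median -0.21). Cyp8b1, the sterol 12-alpha-hydroxylase of bile acid synthesis, had 10.3, 9.11 and 7.02 CPM in wildtype and 4.64, 7.10 and 4.33 CPM in GRdim/dim lungs (log2 fold change -0.71, SE 0.30, unadjusted p = 0.0373, adjusted p = 0.486 in edgeR). GRdim/dim replicate 2 just overlapped wildtype replicate 3. It was mentioned for its unadjusted p-value after its values were seen. Cyp51, of cholesterol synthesis, and Cyp20a1, without a known substrate, were the most abundant and stood at 0.14 (SE 0.25) and 0.08 (SE 0.17).

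The P450 families 1 to 3, the classical drug-metabolizing enzymes, were mixed. Of 16 tested genes, 10 were below 0 (median -0.16), 3 were lower and 1 higher at an unadjusted p-value under 0.05. Over all genes tested, 4.68% were lower and 4.91% higher at that p-value. Cyp2b10, the abundant CYP2B enzyme of mouse lung and a target of CAR in liver, had 384, 386 and 512 CPM in wildtype and 690, 715 and 459 CPM in GRdim/dim lungs. GRdim/dim replicate 3 lay inside the wildtype range, and the log2 fold change was 0.54 (SE 0.23, unadjusted p = 0.0375, adjusted p = 0.486 in edgeR). Cyp2a5, the coumarin hydroxylase, had 116, 135 and 164 CPM against 56.6, 95.8 and 109 CPM, without overlap (log2 fold change -0.67, SE 0.24, adjusted p = 0.428 in edgeR). Without GRdim/dim replicate 1, its lowest library, the fold change was -0.43. As 58.6% of its windows are shared, mostly with Cyp2a4, the sum of both genes is also given, 116 to 165 CPM in wildtype and 56.8 to 110 CPM in GRdim/dim lungs.

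Cyp3a13, the tested CYP3A enzyme, had 11.8, 11.9 and 11.2 CPM in wildtype and 8.41, 6.77 and 6.52 CPM in GRdim/dim lungs. The wildtype lungs were close together and all above the GRdim/dim lungs (log2 fold change -0.68, SE 0.23, adjusted p = 0.387 in edgeR). Cyp2d22, a CYP2D enzyme mentioned after its values were seen, had 104, 152 and 72.2 CPM against 65.2, 81.5 and 66.5 CPM (log2 fold change -0.62, unadjusted p = 0.0308) and overlapped. Cyp2j6, of the fatty acid epoxidizing CYP2J family, was at 12.7 to 14.1 CPM in wildtype and 14.8 to 17.1 CPM in GRdim/dim lungs, apart by a log2 fold change of 0.26 (adjusted p = 0.763 in edgeR).

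Glutathione S-transferases, which join glutathione to electrophiles, were divided. Of 20 tested soluble transferases, 12 were below 0 (median -0.15), with 2 lower and 2 higher at an unadjusted p-value under 0.05 (over all genes, 4.68% and 4.91%). Gsta3 (ENSMUSG00000025934, chr1:21240589-21265661), an alpha-class enzyme, had 275, 310 and 311 CPM in wildtype and 180, 146 and 217 CPM in GRdim/dim lungs. Every GRdim/dim lung was below every wildtype lung. The log2 fold change was -0.72 (SE 0.19, unadjusted p = 0.00317 and adjusted p = 0.244 in edgeR, 0.0403 in DESeq2, 0.0313 in edgeR without the filter, and up to 0.469 over the 13 alternatives). The mu-class Gstm2 had 114, 115 and 122 CPM against 74.8, 93.9 and 97.8 CPM, also without overlap (log2 fold change -0.39, SE 0.16, adjusted p = 0.474 in edgeR). Its abundant neighbour Gstm1 overlapped, at -0.12 (SE 0.21) and 0.03 without wildtype replicate 2.

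The pi-class transferase Gstp1 (chr19:4035407-4037921) had 134, 143 and 146 CPM in wildtype and 179, 165 and 297 CPM in GRdim/dim lungs. All GRdim/dim lungs were above the wildtype lungs, and GRdim/dim replicate 3 was far above the rest. Its fold change on the log2 scale was 0.60 (SE 0.23, unadjusted p = 0.0239, adjusted p = 0.44 in edgeR), and 0.29 without that library. It shares 67.5% of its windows with Gstp2, and both genes together gave 140 to 154 CPM against 170 to 304 CPM. The adjacent Gstp3, chosen after its values were seen, was 0.85 (SE 0.34, unadjusted p = 0.0308) with overlap. Gstt3 of the theta class (15.96, 17.03 and 17.6 against 21.2, 26.4 and 19.4 CPM) and Gstm4 (6.93, 6.71 and 6.89 against 7.66, 7.19 and 8.14 CPM) did not overlap, at 0.41 and 0.16 (adjusted p = 0.571 and 0.906 in edgeR). Gstt3 shares 524 exon bases with Gm20441 on its own strand.

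**Figure D3:**
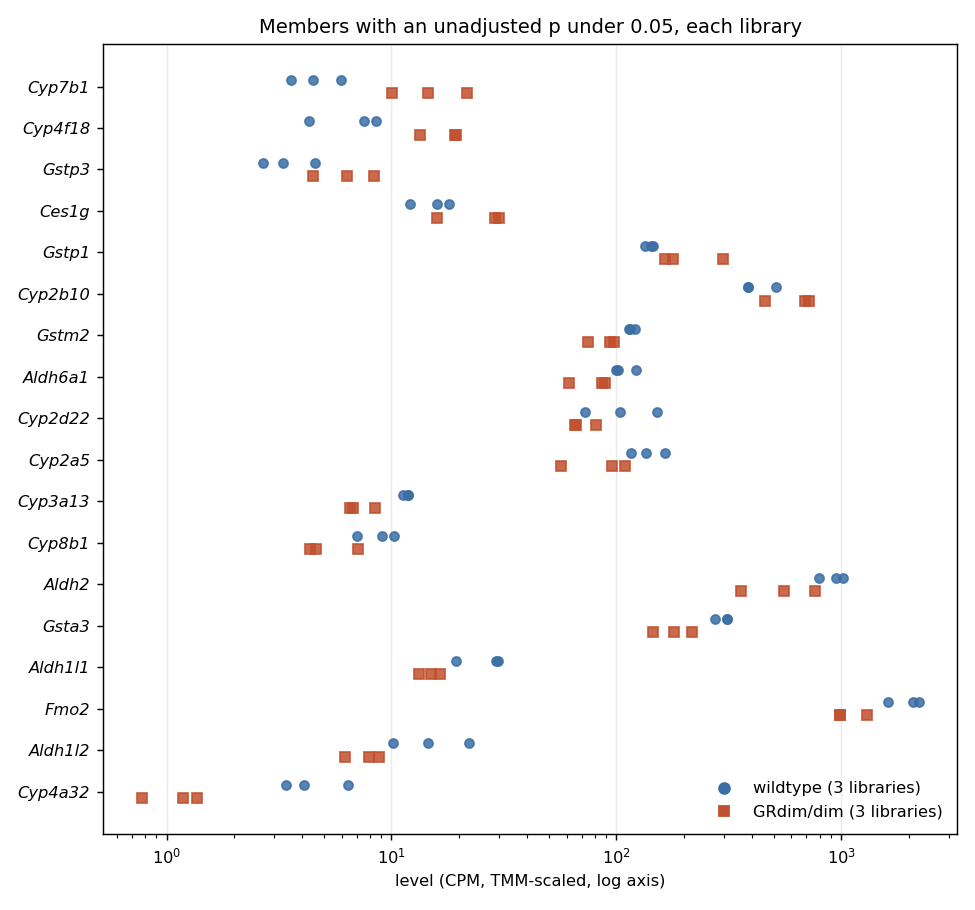
CPM (log axis) in each library of the 18 members with an unadjusted p-value under 0.05, ordered by log2 fold change; circles are wildtype and squares GRdim/dim. In 13 of them the genotypes do not overlap, 10 lower and 3 higher; Gstp3, Ces1g, Cyp2b10, Cyp2d22 and Cyp8b1 overlap.

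In the remaining families no tested member was lower or higher without overlap. The carboxylesterases, which hydrolyse ester drugs and lipids, had 3 of 7 tested genes below 0 (median 0.04). Ces1d, which also hydrolyses triacylglycerol, had 597, 704 and 697 CPM in wildtype and 468, 604 and 548 CPM in GRdim/dim lungs (log2 fold change -0.30, SE 0.19, adjusted p = 0.679 in edgeR). Ces1g, a related lipid hydrolase on the same stretch of chromosome 8, was opposite in sign with 18.05, 16.01 and 12.1 CPM against 30.2, 15.95 and 28.9 CPM (log2 fold change 0.70, SE 0.28, unadjusted p = 0.0286, and 0.42 with the covariate of sex-linked expression). The microsomal epoxide hydrolase Ephx1, which opens epoxides made by P450s, was at -0.35 (SE 0.21, and -0.15 without GRdim/dim replicate 1), and the soluble Ephx2, which hydrolyses fatty acid epoxides, at 0.06 (SE 0.46). Of the microsomal glutathione transferases, Mgst1 was at 0.00 (SE 0.18), Mgst2 at 0.49 (SE 0.32) and Mgst3 at -0.50 (SE 0.27). Mgst3 was -0.26 without GRdim/dim replicate 1 and -0.86 without GRdim/dim replicate 3.

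Glucuronidation genes were barely expressed. The 22 Ugt members together reached 10.4 to 10.996 CPM in wildtype and 12.9, 7.23 and 6.26 CPM in GRdim/dim replicates 1 to 3, and 4 were tested. Ugt1a6b and Ugt1a7c, enzymes for phenols, were at -0.06 (SE 0.36) and 0.21 (SE 0.46). All Ugt1a genes end in the same exons, and 85.1% and 69.5% of the windows of these genes are shared, so their separate levels are uncertain. The untested Ugt1a8 had 0 counts in all wildtype libraries and 2, 1 and 2 counts in GRdim/dim replicates 1 to 3, fewer than the 3 counts that a count of 0 allows.

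Counted over the tested set, 21 of 93 members (22.6%) had libraries that did not overlap between genotypes, 15 lower and 6 higher. Over all genes tested the share was 14.8%, with 7.05% lower and 7.77% higher. The number depends on how many libraries are compared and was 34 without wildtype replicate 3 and 35 without GRdim/dim replicate 2. With fewer libraries any gene overlaps less easily, so these counts cannot be set beside the 14.8%.

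Promoter sequence was read for the members that DESeq2 called and that had an entry in the set of RefSeq promoters used. These were Cyp4a32, Cyp4f18, Fmo2 and Gsta3, and Cyp7b1 had no entry in that set. Shown are the 250 bases before the RefSeq start, 5' to 3' on the strand of the gene, from the C57BL/6J reference GRCm38.p6, whereas the mice were of mixed 129/SvEv x C57BL/6 background. Capitals mark a match on either strand to AGAACANNNTGTTC (a glucocorticoid response element), to AGAACA (1 arm of that element, so matches to the element also match here), to TGACNNNGC (the antioxidant response core bound by NRF2), to GCGTG (the xenobiotic response core bound by the aryl hydrocarbon receptor) or to TATAAA (the core of the TATA box).
Cyp4a32, chr4:115600688-115600937, plus strand: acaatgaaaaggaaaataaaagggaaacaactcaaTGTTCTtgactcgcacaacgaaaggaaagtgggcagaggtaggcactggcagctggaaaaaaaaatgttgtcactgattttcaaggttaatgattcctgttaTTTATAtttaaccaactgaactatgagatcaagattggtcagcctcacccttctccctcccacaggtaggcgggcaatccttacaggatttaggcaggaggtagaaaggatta
Cyp4f18, chr8:72009627-72009876, minus strand: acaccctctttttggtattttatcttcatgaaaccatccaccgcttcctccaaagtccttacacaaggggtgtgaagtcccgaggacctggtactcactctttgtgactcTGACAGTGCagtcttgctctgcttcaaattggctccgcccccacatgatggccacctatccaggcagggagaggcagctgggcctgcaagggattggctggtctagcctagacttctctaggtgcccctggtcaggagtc
Fmo2, chr1:162898759-162899008, minus strand: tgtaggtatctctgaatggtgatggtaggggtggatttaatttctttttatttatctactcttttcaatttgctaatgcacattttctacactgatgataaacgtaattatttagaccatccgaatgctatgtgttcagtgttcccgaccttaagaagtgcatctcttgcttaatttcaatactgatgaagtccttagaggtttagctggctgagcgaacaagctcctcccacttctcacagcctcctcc
Gsta3, chr1:21240335-21240584, plus strand: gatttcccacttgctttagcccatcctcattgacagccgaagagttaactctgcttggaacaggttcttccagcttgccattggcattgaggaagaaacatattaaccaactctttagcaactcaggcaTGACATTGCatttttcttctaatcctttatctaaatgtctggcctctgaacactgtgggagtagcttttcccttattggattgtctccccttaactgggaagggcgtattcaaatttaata

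The Cyp4a32 stretch held 1 arm of a glucocorticoid response element 215 bases before the start and a TATA box match 113 bases before it. Both were read on the opposite strand. Those of Cyp4f18 and Gsta3 each held an antioxidant response core, 140 and 121 bases before the start, although one gene was on the high and the other on the low side. The Fmo2 stretch held none of the searched letters. Promoters were found for 152 members, 73 of them tested. The full glucocorticoid element was in 0 of the 73, and in 2 of the 12015 promoters of all genes tested (0.0166%). The single arm was in 12 of 73 (16.4%, against 11.1% of all), the antioxidant core in 7 (9.59%, against 11.9%), the xenobiotic core in 22 (30.1%, against 43.0%) and the TATA box in 13 (17.8%, against 7.13%). A match is a description of letters and not of binding.

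Many enzyme genes lie in tandem arrays. With neighbours joined at gaps of up to 200000 bases, 141 members fell into 23 groups, 15 of which had 2 or more tested members. In 3 of the 15 all tested members were below 0, among them Cyp4a32 with Cyp4b1, and the adjacent Aldh9a1 and Mgst3 (-0.06 and -0.50). In 0 were all above 0. The mu-class Gst array had 5 of 7 below 0, from -0.71 (Gstm3) to 0.24 (Gstm5). In the Ces1 array 2 of 4 were below 0.

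The 98 untested members were mostly enzymes of liver and other organs. In 37 no read was counted in any library, and 3 counts, the limit that a count of 0 allows, correspond to 0.0935 to 0.191 CPM per library. The other 61 had a summed count of at most 54 (Ces1b), and 35 of them had 1 to 10 counts in all. No member was tested in the Cyp2c array (14 members), the Ugt2 array (10) or the Cyp3a array on chromosome 5 (8). Counts for 23 genes came from a single library.

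Such single-library counts were most frequent in wildtype replicate 3, with 14 members seen in no other library and 45 with any count, against 20 to 32 in the others. It was also the deepest library, with 32082940 counts against 15687734 to 24444604, and had 26951 genes of any kind with a count against 23027 to 23741. Cyp3a11, the main CYP3A enzyme of liver, had 26 reads there and 0 to 2 elsewhere, and Ces1c, an esterase secreted from liver, had 14 and 0. The 10 hepatocyte marker genes summed to 73.7 CPM in this library and to 3.36 to 7.67 CPM in the others. In wildtype replicate 2, Ugt3a2 had 48 reads against 0 to 3 elsewhere, Cyp2j5 had 22 against 0 to 1, and Cyp4a31 had 20 against 0 to 2. Cyp2j5 and Ugt3a2 are known from kidney. The 9 kidney tubule genes other than Lrp2, which lung also expresses, summed to 64.7 CPM there and to 0.498 to 5.56 CPM in the others. That list was added after the values were seen. A source of these reads was not tested.

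**Figure D4:**
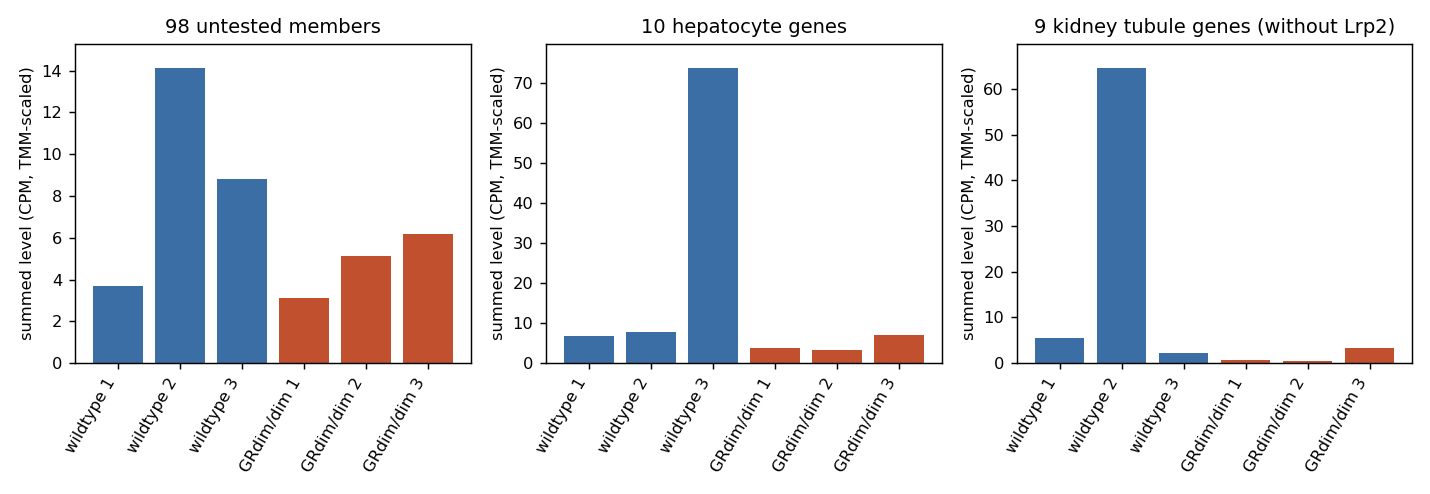
Summed CPM in each library of the 98 untested members, of 10 hepatocyte genes and of 9 kidney tubule genes (without Lrp2); blue bars are wildtype and red bars GRdim/dim, and each axis starts at 0. The hepatocyte sum stands out in wildtype replicate 3 (73.7 CPM), and the kidney tubule sum and the untested members in wildtype replicate 2 (64.7 and 14.1 CPM).

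Other genes of xenobiotic metabolism, from lists outside the set, were read in the same fit. Of the receptors and partners of oxidation, 12 of 14 were tested, 0 were DEGs and 11 were below 0 (median -0.18). The aryl hydrocarbon receptor gene Ahr (-0.38, SE 0.25), the NRF2 gene Nfe2l2 (-0.02, SE 0.16) and the P450 reductase gene Por (-0.06, SE 0.21) had unadjusted p-values of 0.164, 0.882 and 0.773, and the PXR gene Nr1i2 was at 0.418 to 1.499 CPM. They were chosen for their role after their values were seen. Of 21 further phase I enzymes, all tested, 0 were DEGs (median -0.03). The alcohol dehydrogenase Adh1, with 103, 78.7 and 73.3 CPM in wildtype and 35.2, 42.5 and 70.4 CPM in GRdim/dim lungs, had a log2 fold change of -0.78 (SE 0.26, adjusted p = 0.36 in edgeR, 0.132 in DESeq2, 0.0143 in edgeR without the filter, where it was called, and up to 0.726 over the 13 alternatives).

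Of 19 further phase II and glutathione supply genes, 15 were tested, with a median of 0.01 and 1 DEG. This was the phenol sulfotransferase Sult1a1, with 115, 145 and 107 CPM in wildtype and 21.4, 29.9 and 27.2 CPM in GRdim/dim lungs. It fell by 2.23 on the log2 scale (SE 0.20, adjusted p = 0.00337 in edgeR) and passed in 13 of 13 alternatives. Of 16 transporters, 14 were tested and 0 were DEGs (median -0.23). The efflux pump Abcg2 had 58.9, 70.3 and 49.8 CPM against 33.1, 45.4 and 33.1 CPM (log2 fold change -0.68, SE 0.20, adjusted p = 0.312 in edgeR). The organic cation transporter Slc22a3 had 2.21, 2.94 and 1.27 CPM against 9.87, 9.89 and 6.46 CPM (log2 fold change 2.05, SE 0.37, adjusted p = 0.0714 in edgeR, 2.18e-05 in DESeq2 and up to 0.22 over the 13 alternatives), and it shares 420 exon bases with Plg on the opposite strand.

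Of the 6 genes left out of the set, Cyp1a1, an aryl hydrocarbon receptor target, was a DEG with 16.7, 24.3 and 22.9 CPM in wildtype and 0.809, 2.28 and 2.20 CPM in GRdim/dim lungs (log2 fold change -3.59, SE 0.38, adjusted p = 0.0092 in edgeR). Aldh1a1 (-0.51), Aldh3a1 (0.63), Cyp2f2 (0.10) and Cyp1b1 (-0.05) were not DEGs, and Cyp1a2 had 0 counts in all libraries.

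**Figure D5:**
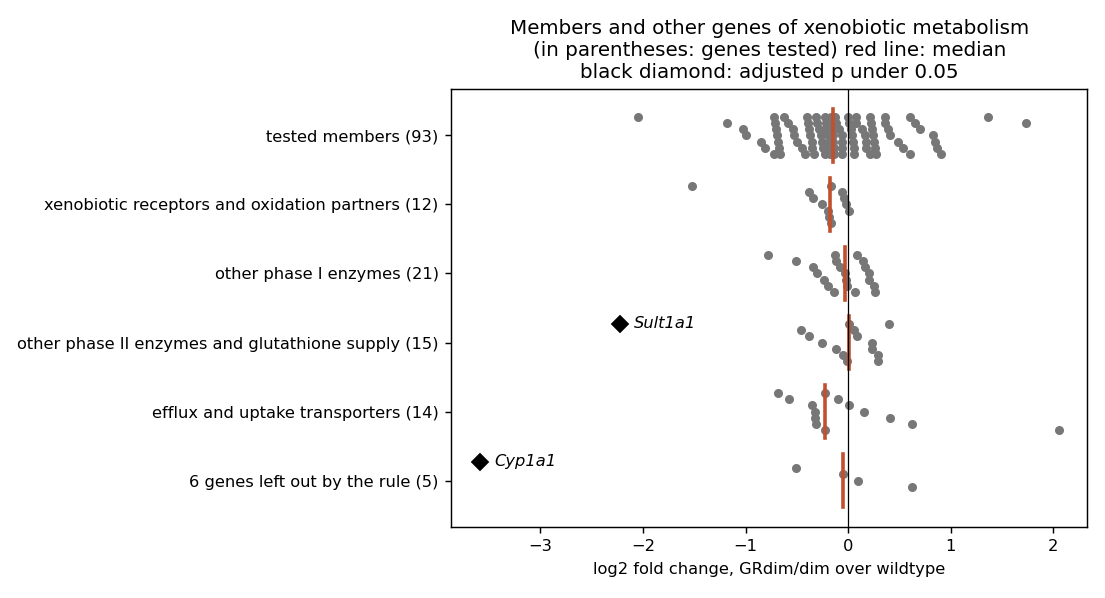
Log2 fold change (GRdim/dim over wildtype) of each tested gene among the members and in 5 other lists of xenobiotic metabolism, with the median as a red line; black diamonds have an adjusted p-value under 0.05. The members spread around a median of -0.14 with no diamond, and the diamonds are Sult1a1 (-2.23) and Cyp1a1 (-3.59).

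Cell type markers give the context of these levels. The labelled tissue matched its markers, since the 10 alveolar type 2 genes summed to 17653 to 26152 CPM over the 6 libraries and the 10 club cell genes to 14853 to 29212 CPM. Club cells express many of the members, and their summed markers were 14853 to 29212 CPM in wildtype and 20736 to 26486 CPM in GRdim/dim lungs. Of the 10 club cell genes, 3 were lower and 0 higher at an unadjusted p-value under 0.05 (median -0.34), although Scgb1a1, the defining one, was 0.23. Ranges also overlapped between genotypes for ciliated (551 to 983 against 389 to 714 CPM), alveolar type 2 (17653 to 25855 against 17648 to 26152), alveolar type 1 (7418 to 9163 against 7571 to 8326) and endothelial genes (2810 to 4272 against 3259 to 3840). They overlapped too for fibroblast (3010 to 4536 against 3460 to 3666), alveolar macrophage (621 to 703 against 563 to 658) and erythroid genes (1113 to 4178 against 1733 to 4391). Gene by gene, the log2 fold change was below 0 in 9 of 10 ciliated (median -0.33) and 8 of 10 alveolar type 2 genes (-0.14). The same held for 8 of 10 endothelial (-0.15), 7 of 10 alveolar type 1 (-0.14) and 7 of 10 alveolar macrophage genes (-0.11). For fibroblasts it was 5 of 10 (0.02), and for erythroid cells 2 of 7 tested (0.35). The B cell sums did not overlap (93.4 to 190 CPM in wildtype against 221 to 749 CPM in GRdim/dim), and 0 of 10 genes were below 0 (median 1.16). Neutrophil sums overlapped (266 to 503 against 369 to 1110 CPM), with 1 of 8 tested genes below 0 (median 0.90). The part of cell composition in the lower Fmo2, Aldh2 and Gsta3 levels was not tested.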

How the data were processed

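RNA from the lungs of 3 wildtype and 3 GRdim/dim mice was sequenced as poly(A)-captured libraries. For each of the 6 libraries the authors deposited a raw count per gene, a whole number that is not normalized, with gene coordinates and a gene length. The submitters' processing notes name mm10 and DESeq2, and the aligner, counter, annotation and strand setting are not given in the sources used here. Of 54532 genes, 54409 were found in GENCODE M21 (GRCm38), 53462 with identical coordinates, and the deposited length was the summed exon length in 173 of the 191 members.

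The members and the gene lists were chosen with earlier results of these data known. Genotypes were compared with edgeR 4.0.16 under R 4.3.3 (filterByExpr, TMM scaling, robust glmQLFit, glmQLFTest), with Benjamini-Hochberg adjustment over all 16568 genes tested, and SEs were taken from that fit. Members were described by counts and medians beside those of all genes, and sums over members were not tested. Named were members without overlap (up to 12 per direction, by unadjusted p), the 2 most abundant members per kilobase in each family, genes of the other lists that were DEGs or had an unadjusted p under 0.05 without overlap, Nr3c1 and the genes left out. Alternatives were DESeq2 1.42.0, RLE scaling, other filters on low counts, a block by replicate number, a covariate of sex-linked expression, no robust estimation, dropping the fold change threshold, and leaving out each library. Replicates of a genotype differed by 20.93 to 70.13 in chi-square per gene, where sampling noise gives 1, so none was a repeated library; nothing states more of their independence than 1 mouse per library and day. The test was checked on simulated counts. Shared sequence was the share of 31-base windows of the transcripts found in other genes, and promoters came from RefSeq (GRCm38.p6). Limits for counts of 0 cover counting error only. Values of 1 tested member are not reported here, although it entered the counts, medians and sums.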

Additional observations from a re-analysis of the deposited data

How the results depend on the processing

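The direction of the log2 fold change was kept in every alternative for Cyp4a32, Cyp7b1, Cyp4f18, Fmo2, Gsta3, Aldh2, Gstp1, Sult1a1 and Cyp1a1, but no member passed the threshold except in DESeq2 and in edgeR without a filter. DEGs over all genes numbered 28, and 274 in DESeq2, 522 without a filter and 4 to 22 with a library left out (4 without wildtype replicate 2, 12 without wildtype replicate 1, 14 without GRdim/dim replicate 3 and 17 without wildtype replicate 3). Members called were 2 higher and 3 lower in DESeq2 and 2 higher and 6 lower without a filter, where Aldh2, Aldh1l2 and Ugt3a2 were added, the last with reads almost only in wildtype replicate 2. With each library left out, 0 members were called, 2 to 6 were higher and 8 to 16 lower at an unadjusted p under 0.05, the median was -0.19 to -0.039 (-0.039 without GRdim/dim replicate 1) and 24 to 35 did not overlap. Without a filter 23 were lower, and 7 with the covariate of sex-linked expression. These counts at an unadjusted p, and those with the replicate block below, stand without shares over all genes. They do not compare members with other genes. The median was -0.23 in DESeq2, which includes members of very low counts. The cause of these shifts was not tested. The count without overlap has no value under another tool or covariate, and it rises for any gene when fewer libraries are compared. Between lungs of equal replicate number, the correlation of deviations was 0.241, 0.047 and -0.018 for replicates 1 to 3. The highest with another number was 0.01, 0.013 and 0.169, so these values do not settle whether the lungs were paired. With a replicate block 34 genes and 0 members were DEGs, and 5 members were higher and 16 lower at an unadjusted p under 0.05. RLE scaling moved no gene by more than 0.0096. Genes near 0 changed sign. Mgst1 was -0.0011 with RLE scaling, -0.027 with the covariate of sex-linked expression and -0.0063 with the replicate block, and Ephx2 was -0.017 with the covariate. With a library left out, the range was -0.29 to 0.05 for Aldh1a7, -0.32 to 0.37 for Ephx2, -0.15 to 0.10 for Mgst1, -0.38 to 0.16 for Ugt1a6b, -0.17 to 0.55 for Ugt1a7c, -0.26 to 0.028 for Gstm1, -0.12 to 0.44 for Cyp51, -0.017 to 0.15 for Cyp20a1, -0.057 to 0.27 for Cyp2f2, -0.24 to 0.11 for Cyp1b1 and -0.13 to 0.057 for Nr3c1. At this depth 98 members were too low to be tested.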
